A study of Rattus norvegicus with 8 samples.

Results

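Neurotrophins and ciliary neurotrophic factor (CNTF) are proteins known to support the survival of retinal neurons, and the 9 genes described here encode 4 ligands of these systems and 5 receptor proteins. They were taken as the probe sets whose array annotation gives exactly 1 gene symbol, equal to Bdnf, Ntf3, Ntrk2, Ntrk3, Ngfr, Cntf, Lif, Lifr or Il6st. All 9 were found, with 114 of the 213067 probe sets on the array and 9 of the 16633 genes that those probe sets form. Whole retinas of male Brown Norway rats aged 8 weeks were collected 4 h after transcorneal electrical stimulation (TES), in which a corneal electrode passes current through the eye, or after a sham procedure. There were 4 TES and 4 sham arrays, each of 1 labelled sample. All animals were wild type per the series title. The series text speaks of 4 animals and of 4 replicates a treatment, and does not say which animal gave which array. The p-values below therefore measure spread among arrays that may not all be separate animals, and part of that spread may be technical.

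The neurotrophins brain-derived neurotrophic factor (Bdnf) and neurotrophin-3 (Ntf3) act through Trk receptor tyrosine kinases, TrkB (Ntrk2) and TrkC (Ntrk3), and also bind the p75 receptor (Ngfr), which can signal for survival or for death. CNTF (Cntf) and leukaemia inhibitory factor (Lif) act through a different system, in which the shared receptor chain gp130 (Il6st) pairs with the LIF receptor (Lifr) and signals through JAK kinases and STAT3. In the retina, TrkB is known from ganglion cells, amacrine cells and Mueller glia, and Mueller glia are known to make LIF when photoreceptors are injured. The comparison asks whether the genes for these ligands and receptors differed shortly after stimulation.

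Bdnf is the member whose transcription is best known to follow neuronal activity, so a stretch of 1 of its promoters is shown before the values. RefSeq windows from 250 bases before to 50 bases after a gene start, in the build GRCr8, were given for 5 of the 9 members, and Bdnf has 6 such windows for its several starts. The letters TCACGTCA, a calcium and cAMP response element described in 1 of the Bdnf promoters, were searched on both strands. They stood in 1 of the 6 Bdnf windows, in no window of Ntf3, Cntf, Lifr or Il6st, and in 0.4% of all 33469 windows (134). The 150 bases before that Bdnf start, at chr3:116637708-116637857 on the plus strand of GRCr8, read as follows, with the element in capitals from base 38 to base 31 before the start.
Bdnf: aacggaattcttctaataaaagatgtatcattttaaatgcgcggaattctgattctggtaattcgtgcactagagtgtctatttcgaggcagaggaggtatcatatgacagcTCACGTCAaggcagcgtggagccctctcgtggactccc
A match describes letters and not a site in use, and the arrays do not say which Bdnf start was transcribed.

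All signals below are log2 GC-RMA values as the authors deposited them, averaged over a gene's probe sets, each error is an SD over 4 arrays, and each difference is the TES mean less the sham mean in log2 units. GC-RMA removes a background estimated from each probe's base composition. Signals depend on the probes, so no member's signal is set against another member's. The 1095 olfactory receptor genes on the array, which a retina is not expected to use, gave a guide to low signal, with a 95th percentile of 3.10 for genes and 3.22 for single probe sets. By that guide 8 of the 9 members were above low signal, and Bdnf was below it. Array medians lay between 5.32 and 5.41, and any 2 arrays had a Pearson r between 0.990 and 0.994 over the 16633 genes, which are not independent of each other. Defining retinal markers were present: of 8 rod genes 7 were measured, with a summed level from 13.83 to 14.02 after TES and from 13.82 to 13.97 after sham, and 7 of 8 Mueller glia markers gave 12.07 to 12.21 and 12.08 to 12.19. Pigment epithelium markers were lower after TES at an unadjusted p under 0.05 in limma in 4 of the 7 measured, and 2 were higher by value. Their summed level was from 9.36 to 10.30 against 9.96 to 10.38 after sham. Of all genes, 5.57% had an unadjusted p under 0.05 in limma. Lens markers were higher at that level in 2 of the 5 measured and lower by value in 1, with 7.14 to 10.38 against 6.30 to 9.30. All 6 microglia markers were lower by value, none at that level, with 6.55 to 6.92 against 6.88 to 7.04. Horizontal cell markers had 8.20 to 8.29 against 8.32 to 8.47, with 1 of 5 lower at that level. By value 2 of the 5 were higher and 3 lower, and the lowest difference was -0.71. Of 9 ganglion cell markers 1 was lower at that level and 3 were higher by value (11.06 to 11.21 against 11.10 to 11.22). Of 5 astrocyte markers 1 was higher at that level and 2 were lower by value (10.95 to 11.08 against 10.92 to 11.04). All 4 erythrocyte markers (9.64 to 10.28 against 8.83 to 10.27) and all 3 measured vascular markers (7.14 to 7.69 against 7.05 to 7.35) were higher by value, none at that level. The part of these tissues and cells in the members' values was not tested. In whole retina, fewer cells of a type and less RNA per cell cannot be told apart.

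No difference between TES and sham was called for any of the 9 genes. In limma with Benjamini-Hochberg adjustment over all 16633 genes, 0 members passed an adjusted p of 0.05, and 0% of all genes did. The smallest adjusted p among the members was 0.934, for Lif. At an unadjusted p under 0.05, 0 members were selected against 5.57% of all genes. With the series' own pair of thresholds, that p and a difference of at least 1.2 fold, 0 members were selected against 3.59% of all genes. TES and sham arrays overlapped for all 9 members, and the groups were separate in 3.31% of all genes. With shares this small, counts of 0 among 9 genes do not set the members apart from the array. No member differed by more than 1.09 fold in its mean. By sign alone 3 members were lower after TES (Bdnf, Ntrk2 and Cntf) and 6 were higher, while 54.9% of all genes were lower (43.3% with each array centred on its median, where the same count of members, 3, was lower). With 1 array left out, the count of members lower ran from 2 without TES 4 to 6 without TES 1. It was 5 without sham 2, TES 2 or TES 3, and 4 without sham 1, sham 3 or sham 4.

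**Figure D1:**
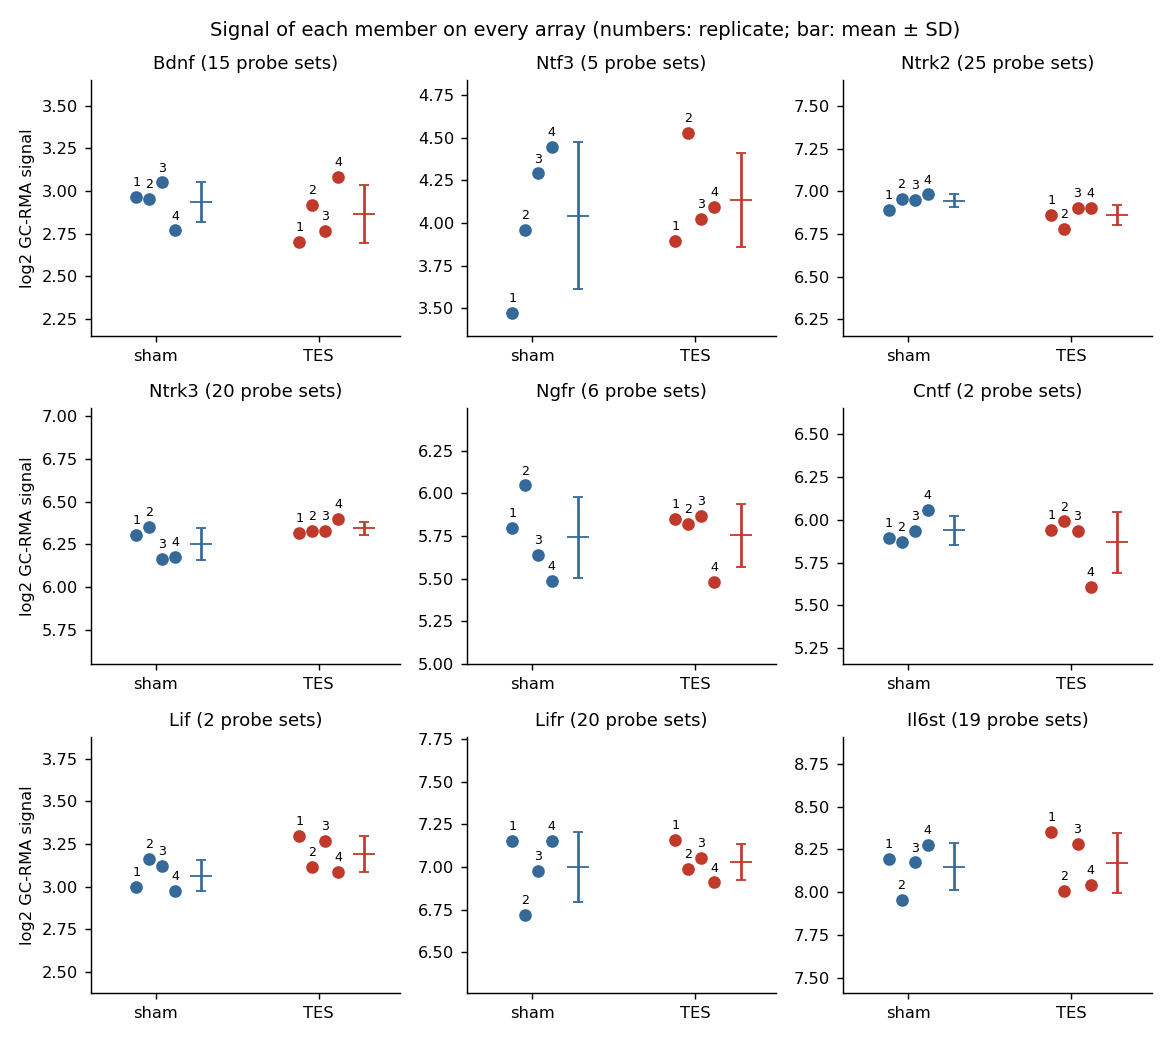
Log2 GC-RMA signal (y axis, the same span of 1.5 units in each panel) of the 9 members on the 4 sham and 4 TES arrays (x axis). Points are arrays with their replicate number and bars are the mean ± SD, and the groups overlap in every panel, with the narrowest range for Ntrk2 and the widest for Ntf3.

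Among the ligands, Bdnf had a signal just under the olfactory receptor guide of 3.10. Bdnf stood at 2.70, 2.92, 2.77 and 3.08 on TES 1 to TES 4 and at 2.96, 2.95, 3.05 and 2.77 on sham 1 to sham 4. TES 1 was the lowest and TES 4 the highest of the 8 arrays, so that the TES arrays spanned the sham arrays. The means were 2.87 ± 0.17 and 2.93 ± 0.12, a difference of -0.07 (95% interval -0.30 to 0.16, limma adjusted p 0.978). Averages over a gene can hide a detected part, and 6 of the 15 Bdnf probe sets were above the probe set guide. The brightest Bdnf probe set had 4.55, 4.97, 5.43 and 4.14 on TES 1 to 4 against 5.58, 4.601, 6.09 and 4.71 on sham 1 to 4. This probe set alone had a difference of -0.47 (95% interval -1.40 to 0.45), with groups that overlapped and a limma adjusted p of 0.998 over all probe sets.

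Ntf3, which encodes the ligand of TrkC, varied more in its mean signal between arrays of 1 group than any other member. That mean is over only 5 probe sets. For single probe sets, the median SD within groups was 0.54 for Ntf3 and 0.53 for Bdnf, whose mean is over 15. The Ntf3 signal was 3.89, 4.53, 4.02 and 4.09 on TES 1 to TES 4 and 3.47, 3.96, 4.29 and 4.45 on sham 1 to sham 4. The lowest array was sham 1 and the highest TES 2, with sham 4 close to it. The means of 4.13 ± 0.28 and 4.04 ± 0.43 differed by 0.09 (95% interval -0.35 to 0.53, adjusted p 0.994 in limma), and the difference ran from -0.10 without sham 1 to 0.23 without sham 4. Its 5 probe sets had mean signals from 2.60 to 5.21, and 3 of them were lower after TES.

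Cntf, a factor that glia of the retina and optic nerve are known to make, had a single low array. It stood at 5.94, 5.99, 5.94 and 5.61 on TES 1 to TES 4 and at 5.89, 5.87, 5.93 and 6.06 on sham 1 to sham 4. All arrays but TES 4 lay within 5.87 to 6.06. The difference was -0.07 (5.87 ± 0.18 against 5.94 ± 0.08, 95% interval -0.29 to 0.15, limma adjusted p 0.976), and without TES 4 it was 0.02. Both Cntf probe sets had TES 4 as their lowest array, at 5.60 for the brighter and 5.61 for the dimmer.

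Lif, the other gp130 ligand among the members, had the widest difference and a low signal. It was at 3.30, 3.12, 3.27 and 3.09 on TES 1 to TES 4 and at 3.00, 3.16, 3.12 and 2.98 on sham 1 to sham 4. All 4 TES arrays were above the sham mean, but TES 2 and TES 4 lay below sham 2. The means of 3.19 ± 0.10 and 3.06 ± 0.09 differed by 0.13 (95% interval -0.06 to 0.32, unadjusted p 0.170 and adjusted p 0.934 in limma). Lif rests on 2 probe sets, with means of 3.45 and 2.81, and only the first is above the guide.

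Of the neurotrophin receptors, Ntrk2 came closest to separate groups. Its signal was 6.86, 6.78, 6.90 and 6.90 on TES 1 to TES 4 and 6.89, 6.96, 6.95 and 6.98 on sham 1 to sham 4. All 4 TES arrays were below the sham mean, and sham 1 was the only sham array below TES 3 and TES 4. The means of 6.86 ± 0.06 and 6.94 ± 0.04 differed by -0.08 (95% interval -0.25 to 0.08, unadjusted p 0.293 and adjusted p 0.958 in limma). The interval is wide beside those SDs because limma draws each gene's variance toward that of all genes. In the unmoderated equal-variance test the unadjusted p of Ntrk2 was 0.0484 and its adjusted p 0.909. Leaving out any 1 array kept the sign of Ntrk2, with differences from -0.10 to -0.06.

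Ntrk3, the TrkC gene, lay on the other side of 0. It stood at 6.32, 6.33, 6.33 and 6.40 on TES 1 to TES 4, a narrow span, and at 6.31, 6.35, 6.17 and 6.18 on sham 1 to sham 4. All 4 TES arrays were above the sham mean, but sham 2 was higher than TES 1, TES 2 and TES 3. The difference was 0.09 (6.34 ± 0.04 against 6.25 ± 0.09, 95% interval -0.08 to 0.27, limma adjusted p 0.957). It had the other sign, at -0.09, when the median over the Ntrk3 probe sets on each array replaced the mean. That is no single probe set, and the median of the single probe set differences was 0.02.

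Ngfr, the p75 receptor gene, had nearly equal means. Its values were 5.85, 5.82, 5.87 and 5.48 on TES 1 to TES 4 and 5.80, 6.05, 5.64 and 5.49 on sham 1 to sham 4. TES 4 and sham 4 were the lowest arrays and sham 2 the highest. The difference was 0.01 (5.75 ± 0.18 against 5.74 ± 0.24, 95% interval -0.28 to 0.30, adjusted p 0.999 in limma), from -0.07 without sham 4 to 0.11 without sham 2.

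The receptors of the gp130 system had close means in both groups. Lifr was at 7.16, 6.99, 7.05 and 6.91 on TES 1 to TES 4 and at 7.15, 6.72, 6.97 and 7.15 on sham 1 to sham 4. Sham 2 was the lowest array, and TES 1, sham 1 and sham 4 were nearly equal at the top. The difference was 0.03 (7.03 ± 0.11 against 6.999 ± 0.20, 95% interval -0.21 to 0.27, limma adjusted p 0.995), and -0.07 without sham 2.

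Il6st, the gp130 gene, stood at 8.35, 8.00, 8.28 and 8.04 on TES 1 to TES 4 and at 8.20, 7.95, 8.17 and 8.27 on sham 1 to sham 4. TES 2, TES 4 and sham 2 formed the low end. The difference was 0.02 (8.17 ± 0.17 against 8.15 ± 0.14, 95% interval -0.22 to 0.26, limma adjusted p 0.998), from -0.04 without sham 2 to 0.08 without TES 2.

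These intervals hold for the mean over a gene's probe sets in the fit to all 8 arrays. They bound no single probe set or transcript form, and intervals under the other settings were not set against a minimum. Single probe sets differed by -0.92 to 0.86 for Ntrk2 and by -0.73 to 0.58 for Il6st. For Ntrk2 the whole interval lay inside 1.2 fold either way on the log2 scale, which is the series' own minimum. For Bdnf, Ntf3, Ntrk3, Ngfr, Cntf, Lif and Lifr at least 1 bound reached past that minimum, so the interval includes differences of that size. Il6st stayed just inside it, at -0.22 and 0.26.

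**Figure D2:**
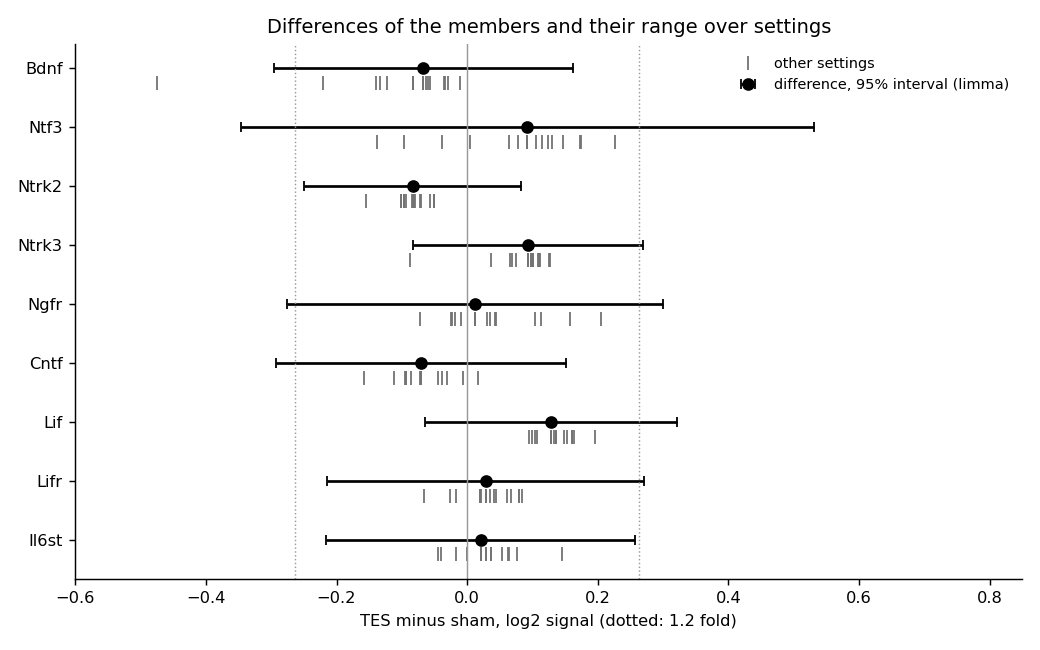
Difference of each member (x axis, TES minus sham in log2 signal, dotted lines at 1.2 fold) with its 95% interval from limma, and below it a tick for each other setting of the processing. All 9 intervals include 0, and the ticks of Ntf3, Ntrk3, Ngfr, Cntf, Lifr and Il6st fall on both sides of 0.

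Taken 1 at a time, the probe sets of each gene gave differences on both sides of 0, except for Lif. Of the 114 probe sets, 100 were above the guide, 55 were higher and 59 lower after TES, against 51.7% lower over the whole array. None passed an adjusted p of 0.05 in limma over all 213067 probe sets, of which 0% passed, and 2 had an unadjusted p under 0.05, against 5.13% of the array. Groups did not overlap in 2 probe sets, against 2.82% of the array. The count of 2 was 5 without sham 2, 5 without sham 4, 1 without sham 3 and 1 without TES 2.

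The first of the 2 belongs to Ntrk2, with 6.57, 6.96, 6.71 and 7.15 on TES 1 to TES 4 against 7.44, 7.60, 7.28 and 7.12 on sham 1 to sham 4. Only TES 4 and sham 4 crossed, and the difference was -0.52 (95% interval -0.93 to -0.10, limma adjusted p 0.954). The second belongs to Ntrk3, with 4.05, 4.18, 4.20 and 4.35 against 3.19, 4.33, 3.05 and 2.62, where sham 2 lay among the TES arrays. Its difference was 0.90 (95% interval 0.13 to 1.67, limma adjusted p 0.957), and the brightest Ntrk3 probe set, at a mean of 8.75, had a difference of 0.04. Of the 25 Ntrk2 probe sets 17 were lower after TES, of the 20 Ntrk3 probe sets 10, of the 20 Lifr probe sets 8 and of the 19 Il6st probe sets 8.

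A non-overlapping probe set of Ntrk2 had 7.49, 7.50, 7.16 and 7.15 on TES 1 to TES 4 and 7.56, 7.51, 7.54 and 7.61 on sham 1 to sham 4, a difference of -0.23 (limma adjusted p 0.992). The other belongs to Lifr, with 7.19, 7.38, 7.13 and 7.11 against 7.02, 6.76, 6.41 and 7.06, a difference of 0.39 (limma adjusted p 0.982). Trk receptor genes are known to give full-length and truncated forms, and the annotation used here does not place a probe set on an exon, so the forms were not told apart. The spread of signal within a gene was wide, from 2.72 to 9.31 for Ntrk2, 1.80 to 8.75 for Ntrk3, 2.75 to 10.02 for Lifr and 3.35 to 10.7 for Il6st, against 5.59 to 6.18 for the 6 probe sets of Ngfr.

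**Figure D3:**
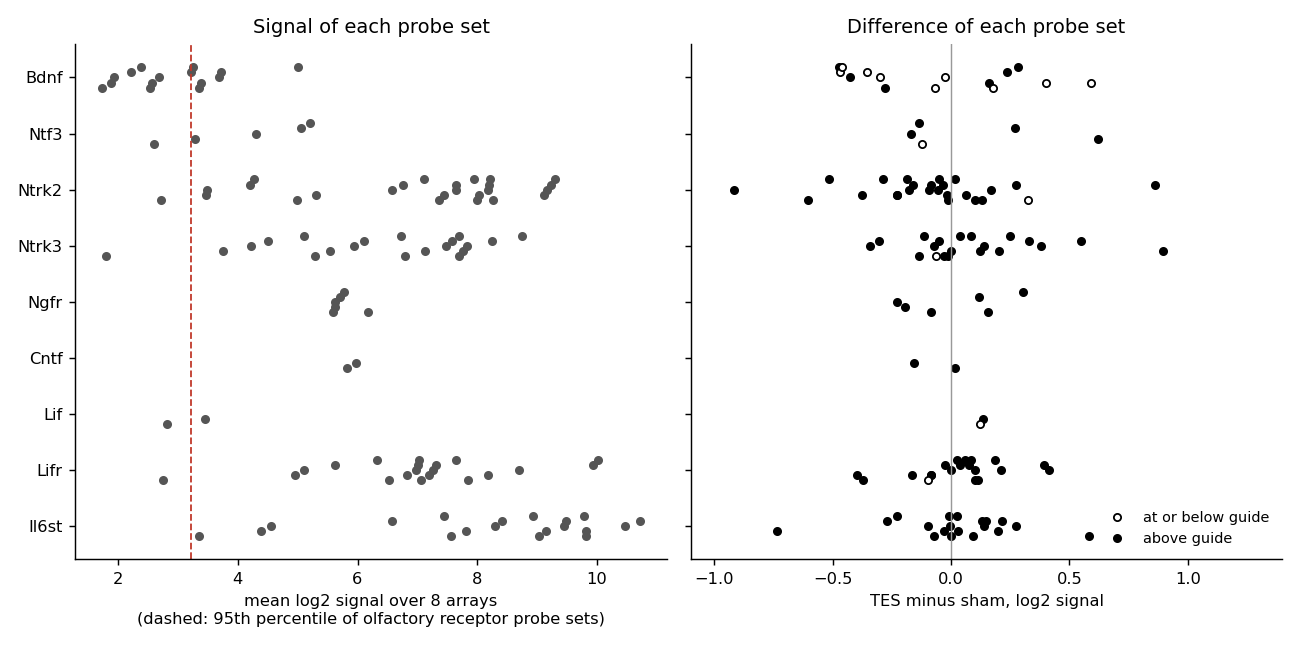
Each point is 1 of the 114 probe sets of the 9 members. The left panel gives its mean log2 signal over 8 arrays with the olfactory receptor guide of 3.22 as a dashed line, and the right panel its TES minus sham difference in log2 signal, open where the probe set is at or below that guide. Differences lie on both sides of 0 for every gene except Lif, whose 2 probe sets were both higher.

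Across the 8 arrays, Pearson's r between 2 members ran from -0.71 to 0.85, with a median of -0.12. So few arrays cannot show that members vary independently. The 36 pairs of members and the 9 relations of a member with the array median make 45 relations, and after Benjamini-Hochberg adjustment 0 of them passed 0.05 in the exact permutation test of Pearson's r. The closest pair was Lifr and Il6st, the receptor chains that act together, with r of 0.85 (two-sided exact permutation p 0.00558, adjusted p 0.251) and Spearman's rho of 0.86 (exact permutation p 0.0107, adjusted p 0.482). Without sham 2 and TES 1, the arrays farthest from the median of Lifr, r was 0.71 over 6 arrays. The r of this pair does not stand out, since 156 of 11395 other genes had r over 0.9 with Il6st and 174 with Lifr. The relations of Lifr and Il6st with the array median signal did not pass either, with r of 0.71 and 0.68 (exact permutation p 0.0486 and 0.0696, adjusted p 0.544 for both) and rho of 0.57 and 0.62 (exact permutation p 0.151 and 0.115), and r was 0.57 and 0.87 without sham 1 and sham 4. With 4 arrays, neither group alone is large enough for a correlation.

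Likeness to other genes was described for Il6st and Lifr, taken by a rule on mean signal, which reflects the probes as well as the RNA and gives no order of expression. The genes most like them over the arrays were taken from 11395 other genes of at least 3 probe sets and a signal above the guide. For Il6st they were Irf3, an interferon regulatory transcription factor (r 0.98), Ccdc72 (r 0.97) and Vav3, a guanine nucleotide exchange factor (r 0.97). For Lifr they were the kinase gene Lmtk2 (r 0.99), Zc3h14, of a zinc finger protein that binds poly(A) (r 0.99), and Mdc1, of the DNA damage response (r 0.98). The Spearman coefficient was 0.98, 0.93 and 0.98 for the first 3 and 1, 1 and 0.90 for the others. These are descriptions over 8 arrays that share array-wide shifts, and 156 genes exceeded r of 0.9 with Il6st and 174 with Lifr.

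The rest of the pathway was read from 10 lists of 153 symbols, of which 135 genes were measured. The other 18 symbols are not analysed here. Of the 135 genes, 59 were higher and 76 lower after TES, 0 were called at an adjusted p of 0.05 by limma, and 6 had an unadjusted p under 0.05 (2 higher and 4 lower), or 4.44%, against 5.57% of all genes. The count of 6 was 10 without sham 4 and 2 without TES 1. The median difference was -0.02, beside -0.01 over all genes. Groups were separate in 3 of the 135, again against 3.31% of all genes.

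Other ligands and receptors of the neurotrophin system gave small differences. Ntf4, the other TrkB ligand, was at 2.56 ± 0.30 after TES and 2.43 ± 0.28 after sham, below the guide. Of 10 neurotrophin receptors and co-receptors 7 were lower, with a median of -0.04. Lingo1, a co-receptor of p75, was lowest with 4.61 ± 0.16 against 4.82 ± 0.21 (difference -0.22, 95% interval -0.48 to 0.05), and Rtn4r, the Nogo receptor, highest with 0.10. Sort1, encoding sortilin, which binds proneurotrophins beside p75, was at 8.93 ± 0.15 and 8.93 ± 0.08.

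Lists of processing and signalling genes had medians near 0. Of 9 genes linked to proneurotrophin processing, 4 were higher and 5 lower, from -0.16 for the convertase Pcsk7 to 0.10 for Plat, tissue plasminogen activator. Of 36 Trk adaptor and signalling genes 13 were higher and 23 lower, with a median of -0.03, from -0.25 for the adaptor Sh2b2 to 0.20 for Irs1. Of 15 genes of p75 signalling 6 were higher, from -0.14 for Maged1, whose product binds p75, to 0.30 for Traf4. Nfkb1, a subunit of the transcription factor NF-kappa-B, was lower on all 4 TES arrays than on any sham array, by a mean of -0.12. No gene of these 3 lists had an unadjusted p under 0.05.

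In the gp130 system, Cntfr, the receptor chain specific to CNTF, was at 8.83 ± 0.20 after TES and 8.85 ± 0.17 after sham (difference -0.02, 95% interval -0.28 to 0.25, limma adjusted p 0.999). Of 7 ligands 4 were higher, from -0.39 for Il11, which was below the guide, to 0.19 for Ctf1, cardiotrophin-1. Of 7 receptors 3 were higher. Il27ra, the receptor chain for interleukin-27 that pairs with gp130, had 3.09 ± 0.08 against 3.33 ± 0.09, with all 4 TES arrays below every sham array, a difference of -0.24 (95% interval -0.42 to -0.06) and a limma adjusted p of 0.843. Its signal was close to the guide of 3.10, and TES 2 at 3.201 lay barely below sham 4 at 3.204. Il11ra1 was highest with 0.13.

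Downstream of gp130, 11 of 23 JAK, STAT and feedback genes were higher. Ptpn2, a phosphatase that acts on JAK and STAT proteins, was at 6.68 ± 0.09 after TES and 6.48 ± 0.11 after sham, with groups that did not overlap, a difference of 0.20 and a limma adjusted p of 0.878. Stat3 had the highest difference of that list, 0.27 (unadjusted p 0.0534 in limma), and Stat5a the lowest, -0.28. Of 14 known target genes of gp130 and STAT3, 6 were higher and 8 lower, with a median of -0.08. Timp1, a protease inhibitor, had a difference of -0.22 (limma adjusted p 0.869) and Fgf2, a growth factor, the lowest of the list at -0.37 (limma adjusted p 0.843). The highest was Icam1, an adhesion molecule, with 0.22.

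Of 13 genes known to follow BDNF and TrkB signalling 8 were higher and 5 lower, with a median of 0.03. The immediate early gene Ier2 was at 4.99 ± 0.37 after TES against 4.58 ± 0.25 (difference 0.41, limma adjusted p 0.882, on 1 probe set). Nptx2, a secreted synaptic pentraxin, had the lowest difference at -0.25 (6.99 ± 0.15 against 7.23 ± 0.18, limma adjusted p 0.883). Egr1 had the highest at 1.15, with an SD of 1.21 over TES arrays.

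**Figure D4:**
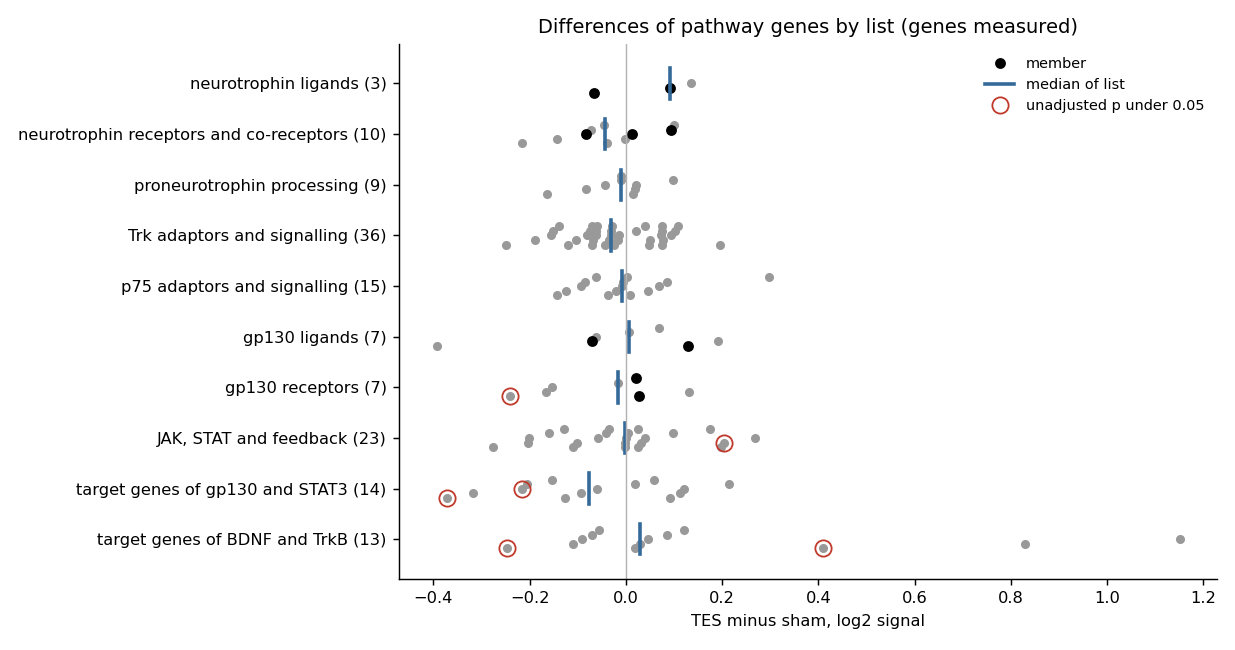
TES minus sham difference in log2 signal (x axis) of each measured gene on the 10 pathway lists, with the number of genes in brackets. Black points are members, blue bars are list medians and red rings mark the 6 genes with an unadjusted p under 0.05, and medians lie between -0.08 and 0.09.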

How the data were processed

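The deposited log2 signals were made by the authors with GC-RMA in GeneSpring GX from Affymetrix Rat Gene 1.0 ST arrays, a 1-colour array, per the labels' series text. Normalization between arrays and the base of the logarithm are not given in the sources used here. Base 2 was taken from the values, whose highest, 13.2, would as a natural logarithm be above what a 16-bit scanner records. Scanner files were not used here, and the number of arrays limits the precision.

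Probe sets with exactly 1 gene symbol (172924 of 213067) were averaged per gene and array. TES and sham were compared with limma 3.58.1 (lmFit and eBayes, R 4.3.3) with no covariate and no filter, adjusting over all genes or all probe sets, and the fit was tested on simulated data. The labels give no batch. Labels and series text name different makers of the RNA kit and different numbers of amplification cycles. Members and lists were chosen with earlier results of these data known. Named pathway genes are those at an unadjusted p under 0.05 and the extremes of each list, and further genes (Ntf4, Sort1, Nfkb1, Cntfr) and the non-overlapping probe sets were chosen after their values were seen. Promoter letters are RefSeq's for GRCr8. The array annotation names no build, so no gene coordinates are given. Same-numbered TES and sham arrays did not all deviate together, so the numbers were not taken as pairs. Alternatives were other scaling, filters, probe set choices, tests and arrays left out. A pair of them, chosen after seeing the data, left out sham 2 with TES 4 or used probe sets above the guide alone.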

Additional observations from a re-analysis of the deposited data

Results flagged for a closer look

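In 3 of the 18 groups of 4 arrays formed by the 9 members and both treatments, 1 array lay far from the other 3 by Dixon's test at 95%, and in each case it was TES 4. Chance gives such a gap in about 1 of 20 independent groups. These 18 groups share the same 8 arrays, and the share over all genes was not worked out. The count is therefore not a result about the members. Over all genes, TES 4 had a mean r of 0.9914 with the other arrays and sham 2 had 0.9907. The rest had 0.9924 to 0.9932. Ntrk3 was at 6.40 on TES 4, where the other TES arrays lay from 6.32 to 6.33. Ngfr was at 5.48 on TES 4, against 5.82 to 5.87 on the others. Cntf was at 5.61 on TES 4, against 5.94 to 5.99. Without TES 4 the differences were 0.07 for Ntrk3, 0.10 for Ngfr and 0.02 for Cntf. Of the 8 arrays, TES 4 also had the lowest summed level of markers of Mueller glia (12.07, beside 12.08 on sham 2), microglia (6.55), pigment epithelium (9.36, beside 9.37 on TES 1) and ganglion cells (11.06, beside 11.09 on TES 1). It had the highest of vascular markers (7.69) and of erythrocyte markers (10.28, beside 10.27 on sham 3). For rod, cone, bipolar, amacrine, horizontal, astrocyte, lens and optic nerve myelin markers TES 4 was neither the lowest nor the highest array. The part of these cells and tissues in the members' values was not tested.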

How the results depend on the processing

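No gene and no probe set passed an adjusted p of 0.05 in limma under any setting tried, in which each count was 0. The thresholds of the series text selected 597 genes instead. The signs of Bdnf, Ntrk2 and Lif were the same in every setting that gave a value. The sign turned for Ntf3 with the probe set of highest mean (-0.14) and for Ntrk3 with the median over its probe sets on each array (-0.087). It also turned for Lifr (-0.026) and Il6st (-0.000976) without both sham 2 and TES 4. That setting was chosen after seeing the data, and 5 members were lower in it. Leaving out 1 array at a time gave ranges across 0 of -0.10 to 0.23 for Ntf3, -0.072 to 0.114 for Ngfr, -0.112 to 0.017 for Cntf, -0.066 to 0.079 for Lifr and -0.044 to 0.076 for Il6st. Filters on low signal removed Bdnf, Ntf3 and Lif from some fits, which then gave no value. Bdnf moved from -0.07 to -0.47 with its brightest probe set. At an unadjusted p under 0.05, 927 genes became 414 without genes under the median signal, where fewer genes are tested. The 6 pathway genes became 3 there, and 1 with probe sets above the guide alone, where the cause was not tested. Same-numbered arrays correlated, as deviations from the group mean, with r from -0.12 to 0.13, and not every array correlated best with its own number. The fit with a replicate block gave 0 genes at the adjusted threshold and 1050 genes, 8 pathway genes and 5 member probe sets at an unadjusted p under 0.05. Low signal limits what can be said of Bdnf and Lif.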
